A study of Mus musculus with 9 samples.

Results

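Fructose enters the hepatocyte through hexose carriers and is split by a short set of enzymes before it joins glycolysis. The 7 genes of this route described here were chosen by name from the 19686 genes of the deposited count table. The choice was made with earlier results of these data known. They are Slc2a5 and Slc2a2 (uptake), Khk, Tkfc and Glyctk (fructolysis), and Akr1b1 and Sord (the polyol route that makes fructose from glucose). All 7 were in the table and all 7 passed the filter on low counts in each comparison. In the livers of DSS rats Tkfc stood at 19.0% of its level in model rats and Slc2a5 at 17.0%, while no member passed the test between model and control rats.

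Livers of male Wistar rats were profiled by RNA-seq, with 3 libraries each from the control, model and DSS groups. Control rats drank purified water, and control and model rats were given saline by gavage. Model rats drank water with 15% fructose over 8 weeks, and DSS rats received the same fructose water together with a 50% methanol extract of the herbal formula Danggui-Shaoyao-San (DSS), named HME in the study, at 1.8 g/kg by gavage. The labels say only DSS, and the group was read as HME because the study took that extract alone to sequencing. The DSS group therefore carries fructose and extract together, and no group received the extract without fructose. All rats were fasted for 12 h before the liver was taken, the study held 10 rats per group, and how the 3 sequenced samples were selected is not given in the sources used here. The labels name the mouse as organism, but the strain is given as Wistar rat and every gene in the table carries a rat Ensembl identifier.

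In the liver, ketohexokinase (Khk) phosphorylates fructose to fructose 1-phosphate, and after this has been split into dihydroxyacetone phosphate and glyceraldehyde, triokinase (Tkfc) phosphorylates the glyceraldehyde. Glyceraldehyde can also be carried to glycerate, which glycerate kinase (Glyctk) returns to glycolysis. The route bypasses the regulated step of phosphofructokinase, which is why fructose carbon reaches fatty acid synthesis readily, and carbohydrate response element-binding protein (ChREBP) is known as a transcription factor of sugar-fed liver.

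Libraries held 14345819 to 26837227 counts. Model replicate 1 stood apart from the other 8 libraries on the second principal component, which carried 22.9% of the variance, and values without it are given below for Slc2a5, Khk, Tkfc, Gapdh, Gpd1, Adh1 and Dcxr. Hepatocyte markers were abundant in every library, and 6 of 7 were matched, with summed levels of 134447 to 172786 CPM in control, 173111 to 222548 in model and 169904 to 212811 in DSS rats. In bulk liver, fewer cells of a type and less RNA per cell cannot be told apart. Nothing in the labels says that replicates are separate rats, so p-values measure the spread between these samples. Levels are given as CPM, a gene's counts scaled to a common library size after TMM normalization, and they are compared between groups for 1 gene at a time, not between genes. A gene was called when its absolute log2 fold change was at least 0.5 and its FDR (edgeR's quasi-likelihood test with Benjamini-Hochberg adjustment over all genes tested) at most 0.01. The comparisons share libraries pairwise and are not independent of each other.

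Slc2a5 (ENSRNOG00000017693) encodes GLUT5, a carrier with a strong preference for fructose that is known mainly from the intestine. Its level was 15.1, 21.6 and 20.7 CPM in control replicates 1 to 3, 30.2, 22.3 and 33.1 CPM in model replicates, and 5.98, 4.91 and 3.67 CPM in DSS replicates. All 3 DSS libraries lay below every other library, and all 3 model libraries lay above every control library, although model replicate 2 and control replicate 2 nearly touched.

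Against model rats, Slc2a5 fell in DSS rats with a log2 fold change of -2.55 ± 0.24 (SE, 95% CI -3.10 to -1.999, edgeR FDR = 0.00434). The group means were 4.86 ± 1.16 and 28.5 ± 5.57 CPM (SD, n = 3). Against control rats, at 19.1 ± 3.53 CPM, the log2 fold change was -1.98 ± 0.212 (edgeR FDR = 0.00155). The call against control was kept without any 1 library. The call against model was not, since the FDR rose above 0.01 on leaving out model replicate 1 (0.0201), model replicate 3 (0.0246), DSS replicate 1 (0.023), DSS replicate 2 (0.0453) or DSS replicate 3 (0.0211), with log2 fold changes of -2.73 to -2.38 over all 6 omissions. With the replicate number as a block the FDR was 0.0253, and with library size alone as the scaling it was 0.0128.

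Between model and control, the log2 fold change of Slc2a5 was 0.58 ± 0.207 (95% CI 0.11 to 1.06), and the test was not passed (edgeR FDR = 0.285). The order of its levels was model, control, DSS, and the first 2 of these did not differ past the threshold. The gene rests on few reads, 71 to 110 counts in DSS, 311 to 376 in control and 347 to 705 in model libraries.

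Since GLUT5 is a carrier of gut and kidney, markers of both tissues were examined. Of 7 intestine markers 5 were matched, and their summed level was 62.9 to 200 CPM in control, 39.1 to 88.8 in model and 27.2 to 118 in DSS libraries, with Cdh17 as the only one above 1 CPM throughout. These sums overlapped between all 3 groups. They came almost wholly from Cdh17, with means of 131, 54.9 and 68.1 CPM in control, model and DSS rats. Each of the other matched intestine markers had a mean below 1 CPM in every group. The intestine sum is thus a reading of 1 gene, and it cannot tell whether gut tissue was present. Of 5 kidney markers 2 were matched, summing to 0 to 0.281 CPM in control, 0.309 to 5.53 in model and 0 to 0.054 in DSS libraries. This sum came almost wholly from Slc12a1 and did not overlap between DSS and model, and its part in the Slc2a5 result was not tested. Slc12a1 itself had means of 0.094, 2.28 and 0.018 CPM in control, model and DSS rats, with 5 to 86 counts in the model libraries.

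Slc2a2 (ENSRNOG00000011875) encodes GLUT2, the main facilitative hexose carrier of the hepatocyte, which passes glucose as well as fructose. It was measured at 481, 528 and 555 CPM in control, 547, 495 and 521 CPM in model and 408, 341 and 434 CPM in DSS replicates. The control and model libraries were interleaved, with equal means of 521 CPM (SD 37.6 and 26.1, n = 3), and the 3 DSS libraries lay below all 6 others. Its log2 fold change was -0.40 ± 0.147 against model (95% CI -0.73 to -0.06, edgeR FDR = 0.549) and -0.41 ± 0.133 against control (95% CI -0.71 to -0.11, edgeR FDR = 0.099), so neither comparison passed the test. Between model and control the log2 fold change lay between -0.31 and 0.31 with 95% confidence. The count ratio of Slc2a5 to Slc2a2 within a library was 0.031 to 0.041 in control, 0.045 to 0.064 in model and 0.008 to 0.015 in DSS rats.

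**Figure D1:**
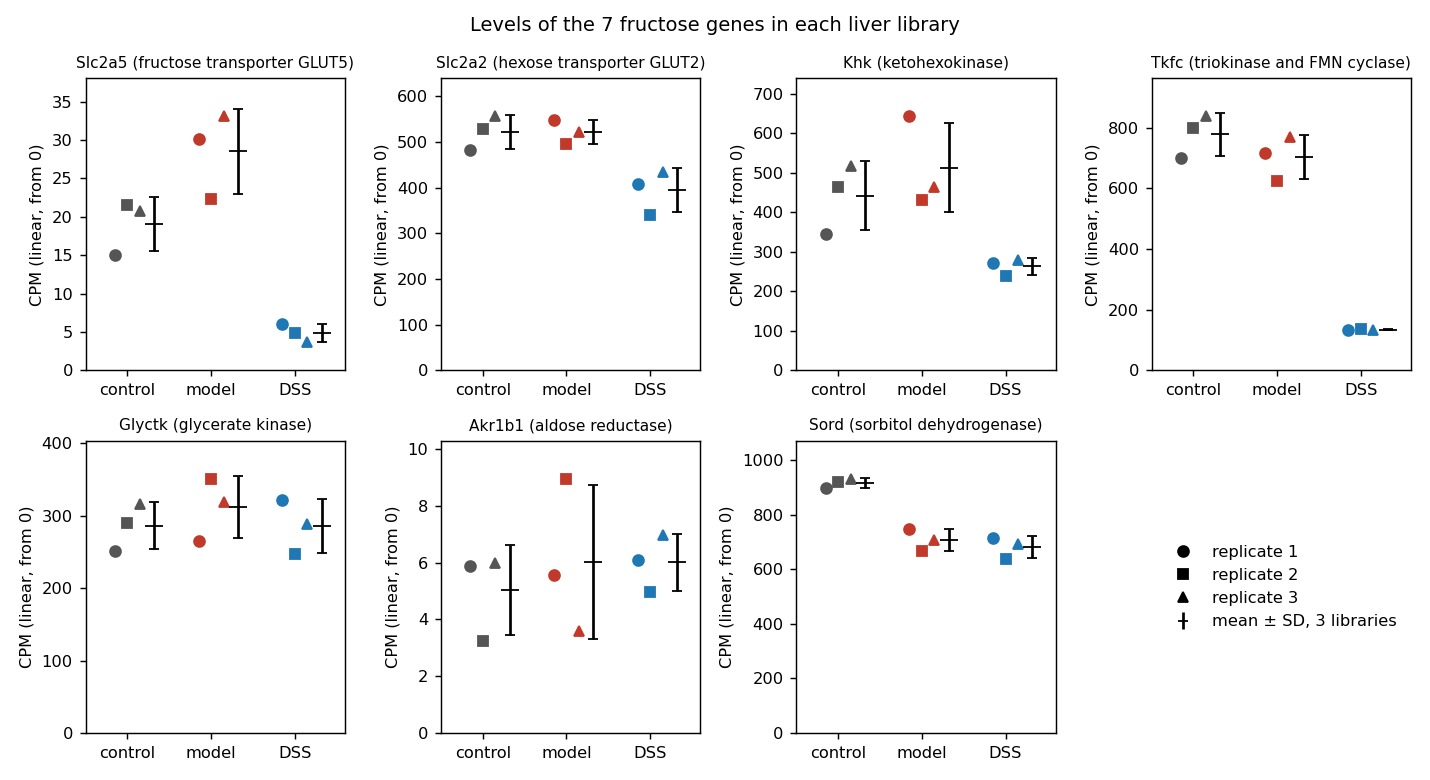
Level of each of the 7 fructose genes in every liver library, in CPM on a linear axis from 0. Points are libraries (circle, replicate 1; square, replicate 2; triangle, replicate 3), and bars are the mean ± SD of 3 libraries. The DSS libraries of Tkfc sit between 132 and 136 CPM, below the 626 to 837 CPM of the other 6, whereas the 3 groups of Glyctk and Akr1b1 overlap.

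Khk (ENSRNOG00000008047) takes the first committed step of fructose use. The table has 1 count per gene and does not separate its splice forms. Its level was 345, 465 and 516 CPM in control, 643, 432 and 464 CPM in model and 273, 239 and 279 CPM in DSS replicates. Every DSS library was below every other library, and model replicate 1 was well above the other model libraries, which lay inside the control range.

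The mean of Khk in DSS rats was 264 ± 21.7 CPM, or 51.4% of the model mean of 513 ± 113 CPM (SD, n = 3). The log2 fold change against model was -0.95 ± 0.185 (95% CI -1.38 to -0.53), and with an edgeR FDR of 0.0984 the gene was not called, although it was 1 of the 3 members called by DESeq2 (adjusted p = 3.69e-04). Leaving out model replicate 1 gave a log2 fold change of -0.76 (edgeR FDR = 0.0868). Against control, at 442 ± 87.6 CPM, it was -0.75 ± 0.162 (edgeR FDR = 0.028, DESeq2 adjusted p = 6.27e-04), again short of the FDR threshold in edgeR, while scaling by library size alone gave -0.88 (edgeR FDR = 0.00651). Between model and control the log2 fold change was 0.22 ± 0.217 (edgeR FDR = 0.717), and 0.0021 without model replicate 1.

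Tkfc (ENSRNOG00000020704) encodes triokinase, an enzyme that also acts as an FMN cyclase. It was read at 701, 799.7 and 837 CPM in control, 716, 626 and 769.9 CPM in model, and 132, 136 and 133 CPM in DSS replicates. The control and model libraries overlapped, and the DSS libraries formed a narrow band far below them, with a mean of 134 ± 2.21 CPM against 704 ± 72.8 in model and 779 ± 70.6 in control rats (SD, n = 3).

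Tkfc fell in DSS rats by 2.39 on the log2 scale against model (SE 0.146, 95% CI -2.73 to -2.06, edgeR FDR = 0.00163) and fell by 2.55 against control (SE 0.125, 95% CI -2.83 to -2.27, edgeR FDR = 2.68e-05). By unadjusted p it ranked 1 of 12502 genes tested in the former comparison and 2 of 12633 in the latter. Without model replicate 1 the log2 fold change against model was -2.38 (edgeR FDR = 0.00175). The call against model was lost without DSS replicate 1 (FDR = 0.0146) or DSS replicate 3 (FDR = 0.0105), while over the 6 omissions the log2 fold change stayed between -2.48 and -2.32. The call against control was kept in all 6 omissions. Between model and control Tkfc had a log2 fold change of -0.15 ± 0.154 (95% CI -0.50 to 0.20, edgeR FDR = 0.727).

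Glyctk (ENSRNOG00000046307) was counted at 251, 291 and 316 CPM in control, 266, 351 and 319 CPM in model and 321, 247 and 288 CPM in DSS replicates. The 3 groups overlapped throughout. Its log2 fold change was -0.12 in DSS against model (95% CI -0.49 to 0.25, edgeR FDR = 0.9), -0.01 against control (edgeR FDR = 0.985) and 0.12 between model and control (95% CI -0.24 to 0.48, edgeR FDR = 0.781). The sign of both differences from control changed with scaling, to -0.0021 in model against control with library size alone and to 0.0018 in DSS against control with RLE factors.

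Because these genes are counted in the same library, their count ratio does not depend on how libraries are scaled. The Tkfc to Glyctk ratio was 2.79, 2.75 and 2.65 in control, 2.70, 1.79 and 2.41 in model and 0.41, 0.551 and 0.46 in DSS replicates. The Tkfc to Khk ratio was 1.62 to 2.03 in control, 1.11 to 1.66 in model and 0.475 to 0.569 in DSS libraries. Neither ratio overlapped between DSS and the other groups, so the difference in Tkfc was not matched by one of equal size in either neighbour. For Khk to Glyctk the ratio was 1.37 to 1.64 in control, 1.23 to 2.42 in model and 0.849 to 0.969 in DSS libraries, and the value of 2.42 was that of model replicate 1. With 3 libraries against 3, the smallest p of an exact permutation test is 0.1, and no p is given for these ratios.

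**Figure D2:**
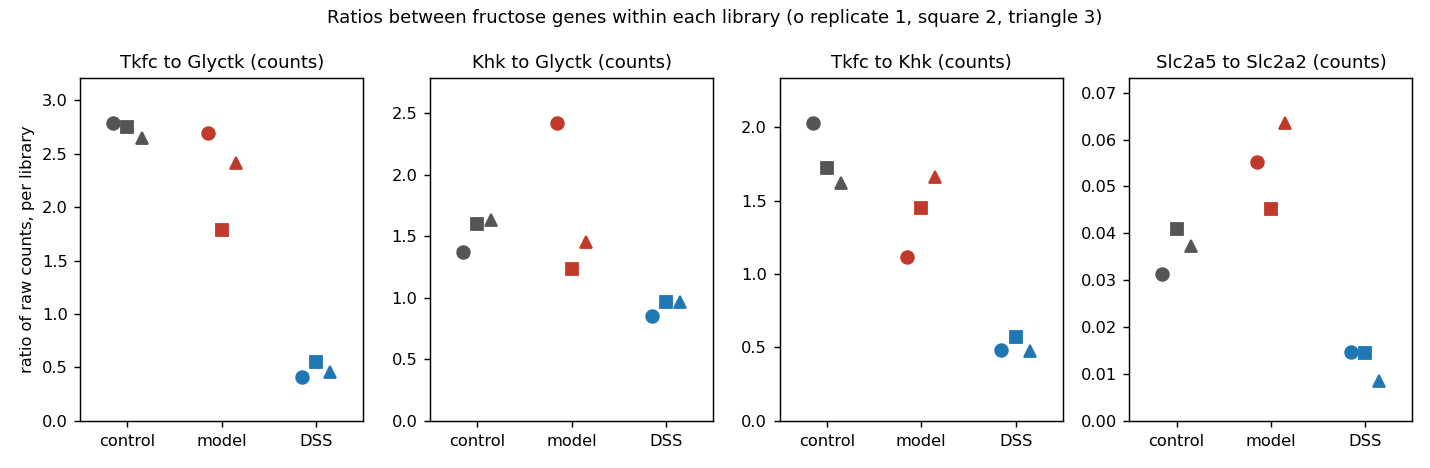
Ratio of raw counts between pairs of fructose genes in each library, on linear axes from 0, with 1 point per library (circle, replicate 1; square, replicate 2; triangle, replicate 3). In all 4 panels the DSS libraries lie below every control and model library, with Tkfc to Glyctk at 0.41 to 0.551 against 1.79 to 2.79.

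Akr1b1 (ENSRNOG00000009513) encodes aldose reductase, which reduces glucose to sorbitol. It was low in all livers, with 54 to 147 counts per library, and was measured at 5.89, 3.23 and 5.996 CPM in control, 5.57, 8.94 and 3.58 CPM in model and 6.09, 4.97 and 6.98 CPM in DSS replicates. The groups overlapped, and the model libraries alone spanned nearly the whole range. Its log2 fold change was 0.01 in DSS against model (95% CI -0.75 to 0.76, edgeR FDR = 0.998), 0.25 in DSS against control (95% CI -0.33 to 0.83, edgeR FDR = 0.604) and 0.25 in model against control (95% CI -0.59 to 1.09, edgeR FDR = 0.81). Differences of any size inside these intervals remain compatible with the values of these libraries.

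Sord (ENSRNOG00000017291), sorbitol dehydrogenase, oxidises sorbitol to fructose. It was measured at 898, 921 and 931 CPM in control, 750.1, 668 and 707 CPM in model and 715, 638 and 694 CPM in DSS replicates. Here the control libraries stood apart, above all 6 libraries of fructose-fed rats, and model and DSS libraries were interleaved. The mean was 917 ± 16.7 CPM in control, 708 ± 41.1 in model and 682 ± 39.8 in DSS rats (SD, n = 3). The log2 fold change was -0.37 ± 0.136 in model against control (95% CI -0.68 to -0.06, edgeR FDR = 0.296) and -0.43 ± 0.113 in DSS against control (95% CI -0.69 to -0.18, edgeR FDR = 0.0525), neither past the thresholds. The log2 fold change in DSS against model was -0.05 (95% CI -0.36 to 0.26, edgeR FDR = 0.957).

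**Figure D3:**
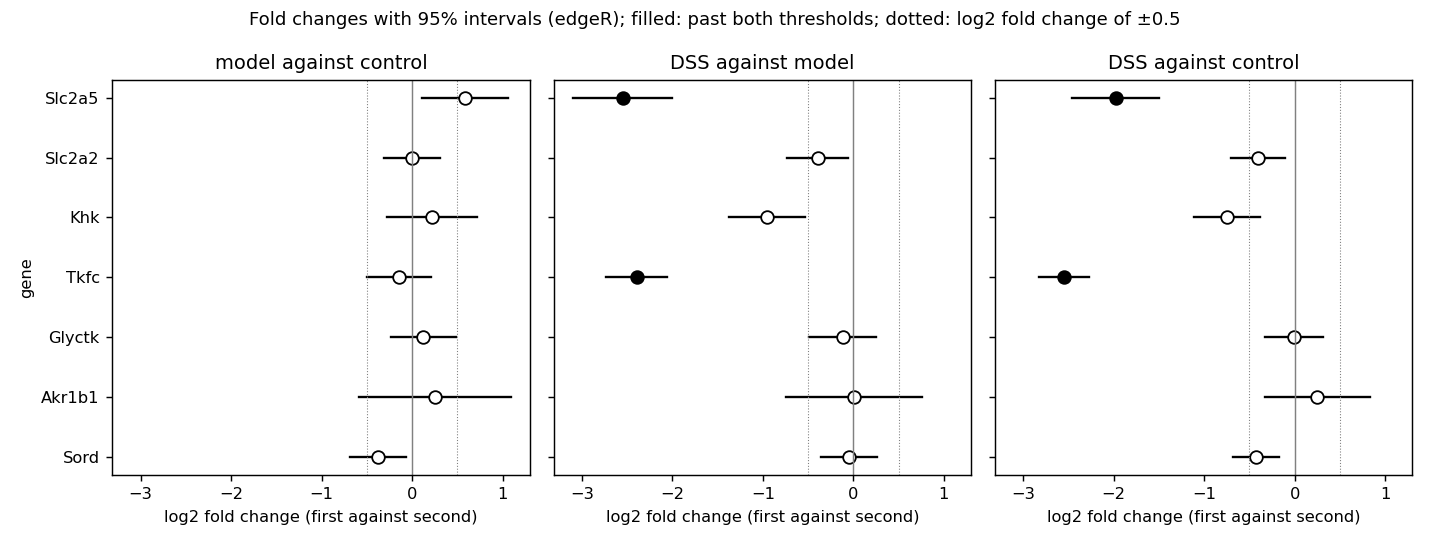
Log2 fold change of each fructose gene in the 3 comparisons, with the 95% confidence interval from edgeR. Filled points passed both thresholds, and dotted lines mark a log2 fold change of 0.5 in either direction. Slc2a5 and Tkfc are filled in both comparisons with DSS rats, between -2.55 and -1.98, and no point is filled for model against control.

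Between model and control, 0 of the 7 members were called by edgeR, against a background of 0.0801% of the 12486 genes tested. DESeq2 also called 0 members, where it called 2.05% of all genes. An unadjusted p under 0.05 in edgeR was reached by 2 members, Slc2a5 (higher) and Sord (lower), and by 13.2% of all genes. The same 2 members had groups that did not overlap, against 21.1% of all genes. The median log2 fold change of the members was 0.12 and that of all genes 0.00.

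In DSS against model rats, 2 of the 7 members were called, both lower, where 0.136% of the 12502 genes tested were called in either direction and 0.08% were called lower. DESeq2 called 3 members, where it called 1.18% of all genes. For 4 members (Slc2a5, Slc2a2, Khk and Tkfc) the DSS libraries lay lower with no overlap of the groups, against 7.86% of all genes, and the same 4 reached an unadjusted p under 0.05 in edgeR, against 4.49%. The log2 fold change was negative for 6 of the 7, against 49.9% of all genes, with a median of -0.40 over the members and 0.00 over all genes. Because the members were chosen with earlier results of these data known, these shares are a description and not a test.

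In DSS against control rats, 2 of the 7 members were called, the same genes as against model and both lower, where 1.48% of the 12633 genes tested were called and 0.823% were called lower. DESeq2 called 3 members, where it called 6.09% of all genes. For 5 members (Slc2a5, Slc2a2, Khk, Tkfc and Sord) the DSS libraries lay lower with no overlap, against 15.2% of all genes, and the same 5 reached an unadjusted p under 0.05 in edgeR, against 12.5%. The log2 fold change was negative for 6 of the 7, against 50.9% of all genes. The median log2 fold change was -0.43 over the members and -0.01 over all genes. These shares too are a description, since the choice of members was made with earlier results known.

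**Figure D4:**
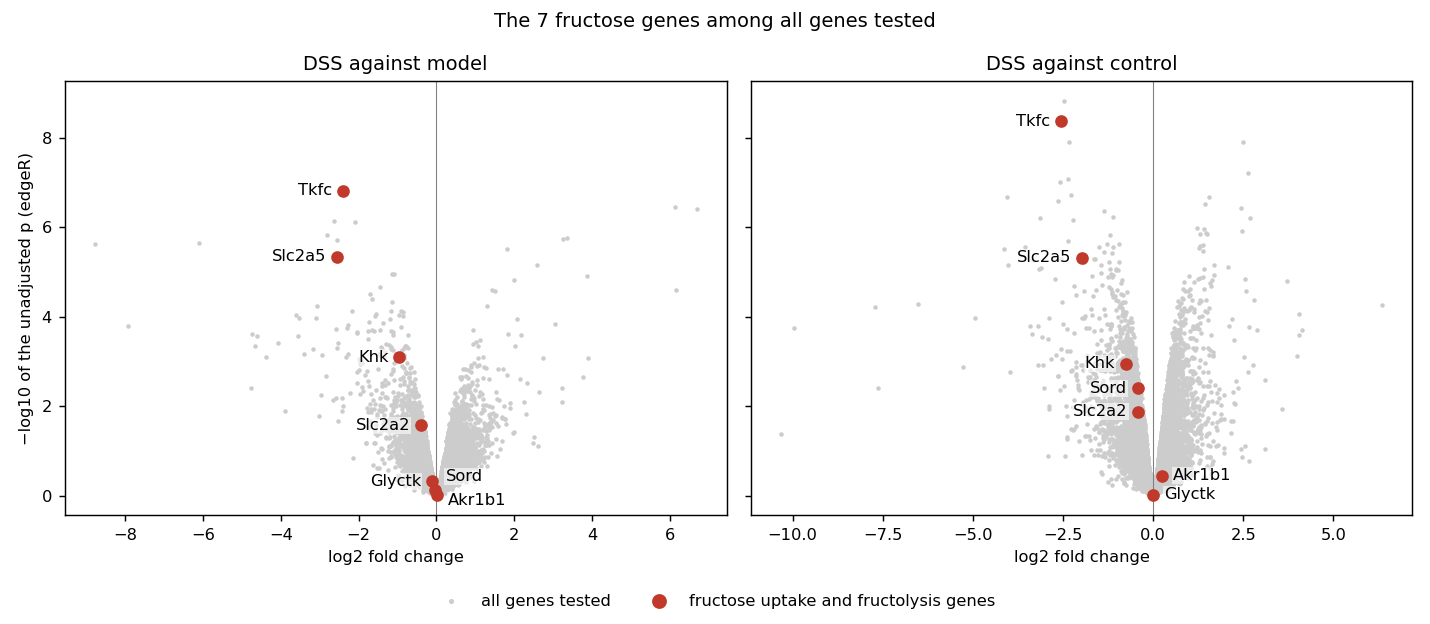
All genes tested in DSS against model (left) and DSS against control (right), with the log2 fold change on the x axis, the −log10 of the unadjusted edgeR p on the y axis, and the 7 fructose genes in red. Tkfc holds rank 1 by p on the left and rank 2 on the right, and Slc2a5 ranks 13 and 39.

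Genes on either side of these steps were examined as lists, which were chosen with earlier results of these data known. The triose steps after fructolysis (triose phosphate, glycerol and glyceraldehyde enzymes) had 11 members, of which 10 were tested in DSS against model, with 3 higher, 7 lower and 0 called by edgeR. An unadjusted p under 0.05 was reached by 2, against 8.02% of all genes, and DESeq2 called 1, where it called 1.18% of all genes. Their median log2 fold change was -0.04, and 3 lay lower with no overlap, against 7.86% of all genes. The 2 with the lowest p were Adh1, an alcohol dehydrogenase, at -0.42 ± 0.176 (edgeR FDR = 0.609) and at -0.27 without model replicate 1, and Gapdh, the glyceraldehyde 3-phosphate dehydrogenase of glycolysis, at -0.87 ± 0.198 (edgeR FDR = 0.186) and at -0.64 without model replicate 1, a gene whose many processed copies may share reads.

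Glycerol kinase (Gk), which makes glycerol 3-phosphate, was the only gene of these lists called between model and control. It stood at 104.5, 133 and 104.7 CPM in control, 594, 515 and 641 CPM in model and 649, 638 and 655 CPM in DSS replicates. It rose in model rats by a log2 fold change of 2.35 ± 0.169 (edgeR FDR = 0.00275), a call lost with the replicate block (FDR = 0.0573) and without control replicate 1, 2 or 3 or model replicate 3 (FDR up to 0.0234). Its log2 fold change in DSS against model was 0.16 (edgeR FDR = 0.861), so it stayed near the model level where Tkfc did not. Gpd1, which exchanges dihydroxyacetone phosphate and glycerol 3-phosphate, was lower in DSS than in control rats with a log2 fold change of -0.90 ± 0.113 (edgeR FDR = 0.00295), and had -0.47 (edgeR FDR = 0.67) against model, where model replicate 1 was at 1168 CPM beside 629 and 877 CPM. Without that library it had -0.23, and without model replicate 2 it had -0.67. The call against control was lost without control replicate 2 or 3 or any 1 DSS library (FDR up to 0.0168), with the replicate block and in the fit of all 9 libraries (FDR up to 0.0339). Adh1 had -0.60 in model against control (edgeR FDR = 0.291).

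Of 15 other hexose carriers 12 were matched and 7 tested, and 0 were called in any comparison by edgeR or DESeq2. An unadjusted p under 0.05 was reached by 0 in model against control and by 1 in each comparison with DSS. Of all genes 13.2% reached it in model against control, 8.02% in DSS against model and 24.3% in DSS against control. Of the 7, 6 had positive log2 fold changes and 1 a negative one in DSS against model, with a median of 0.43. Over all genes tested 49.9% were negative there. The carriers named below were low, with means of at most 8.67 CPM in any group. Slc2a1, the widely expressed glucose carrier GLUT1, had means of 3.49, 3.81 and 6.76 CPM in control, model and DSS rats and a log2 fold change of 0.83 ± 0.286 in DSS against model (edgeR FDR = 0.486) and 0.94 against control (edgeR FDR = 0.105). Slc2a13 had 0.82 in DSS against model (edgeR FDR = 0.737) and -0.64 in model against control (edgeR FDR = 0.674), on 5 to 17 counts per library. Leaving out 1 library moved the latter to between -0.99 and -0.17, the last without control replicate 3. For Slc2a8 the log2 fold change in model against control was -0.17 (edgeR FDR = 0.715), and for Slc2a12 that in DSS against control was 0.88 (edgeR FDR = 0.582). The Slc2a12 value rested on control replicate 3, at 6.80 CPM beside 0.762 and 1.08 CPM in the other control libraries, and without it the log2 fold change was 2.496 (edgeR FDR = 0.00589), past both thresholds.

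Among hexose kinases and fructose phosphate enzymes 15 of 17 were tested, and edgeR called 0 in model against control and 0 in DSS against model. DESeq2 called 2 and 1 there, where it called 2.05% and 1.18% of all genes. In edgeR 3 and 4 reached an unadjusted p under 0.05, against 13.2% and 8.02% of all genes. The median log2 fold change was -0.14 in both. In DSS against control 1 was called higher and 2 lower, where 0.657% of all genes were called higher and 0.823% lower. The one higher was Gckr, the glucokinase regulatory protein, whose hold on glucokinase is released by fructose 1-phosphate, with means of 151, 342 and 253 CPM in control, model and DSS rats (log2 fold change 0.74 ± 0.116, edgeR FDR = 0.0079), a call lost on leaving out any 1 of the 6 libraries (FDR up to 0.0354) and also with library size alone, the replicate block or the fit of all 9 libraries (FDR up to 0.0228). It was at 1.18 in model against control (edgeR FDR = 0.0244).

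The 2 lower were Gpi and Pfkfb1. Gpi, the isomerase between glucose 6-phosphate and fructose 6-phosphate, was at 156, 209.6 and 233 CPM in control, 272, 193 and 267 CPM in model and 84.5, 92.0 and 89.6 CPM in DSS replicates, so that its DSS libraries lay below all others. It fell by 1.17 on the log2 scale against control (edgeR FDR = 0.0036), and had -1.45 ± 0.168 against model (edgeR FDR = 0.0144). Pfkfb1, the liver enzyme that sets fructose 2,6-bisphosphate, had means of 118, 47.9 and 31.1 CPM in control, model and DSS rats and fell by 1.93 against control (edgeR FDR = 0.00376). In model against control it had -1.31 (edgeR FDR = 0.0241) and in DSS against model -0.61 (edgeR FDR = 0.533). The call of Gpi was lost without control replicate 2 or 3 or any 1 DSS library (FDR up to 0.0188), and that of Pfkfb1 without control replicate 2 or 3 or DSS replicate 2 (FDR up to 0.0195). Mpi, the mannose phosphate isomerase, had -0.64 in DSS against model (edgeR FDR = 0.459).

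Of the 8 aldose reductase relatives and other polyol genes 5 were matched, 3 or 4 were tested in each comparison, and 0 were called by edgeR. DESeq2 called 1 in DSS against control, where it called 6.09% of all genes. An unadjusted p under 0.05 was reached by 1 in each comparison with control, against 13.2% (model) and 24.3% (DSS) of all genes. Xylb, xylulose kinase, had 0.38 in model against control (edgeR FDR = 0.335), 0.17 in DSS against model (edgeR FDR = 0.861) and 0.54 in DSS against control (edgeR FDR = 0.032). Dcxr, which reduces xylulose, had 0.20 in DSS against model (edgeR FDR = 0.855) and 0.38 without model replicate 1.

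From a list of the ChREBP partner Mlx and known ChREBP targets 14 genes were matched and 13 tested. The gene of ChREBP itself was not analysed here. All 13 had negative log2 fold changes in DSS against model, against 49.9% of all genes, with a median of -1.34. Of these, 2 were called, both lower, where 0.08% of all genes were called lower. DESeq2 called 5, where it called 1.18% of all genes. No overlap, with DSS lower, was found for 7, against 7.86% of all genes. The activity of ChREBP was not tested, and the list was not compared with targets of other factors. Since the list was chosen with earlier results of these data known, its shares are a description and not a test. In model against control 7 were higher and 6 lower, and 0 were called by edgeR. DESeq2 called 1, where it called 2.05% of all genes, and 4 reached an unadjusted p under 0.05 in edgeR, against 13.2%. The median was 0.01, with the lowest p for Acacb (-1.13, edgeR FDR = 0.117) and Mlx (-0.39, edgeR FDR = 0.234).

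Pklr, the liver pyruvate kinase at the end of the same glycolytic route, was at 523, 438 and 489 CPM in control, 492, 518 and 703 CPM in model and 62.0, 98.7 and 81.0 CPM in DSS replicates. It fell by 2.82 against model (SE 0.229, edgeR FDR = 0.00266) and by 2.59 against control (SE 0.178, edgeR FDR = 1.73e-04). Me1, the cytosolic malic enzyme, fell by 2.08 against model (edgeR FDR = 0.0019), with means of 113 CPM in model and 26.6 CPM in DSS rats. The calls of both against model were lost without model replicate 3 or any 1 DSS library, with FDR up to 0.0211 for Pklr and 0.0209 for Me1. That of Me1 was also lost with the replicate block and in the fit of all 9 libraries (FDR up to 0.0233).

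In DSS against control 3 genes of that list were called, all lower, where 0.823% of all genes were called lower. Besides Pklr these were Fasn, fatty acid synthase, at -4.02 ± 0.349 (edgeR FDR = 0.00183), and Acly, ATP citrate lyase, at -2.89 ± 0.359 (edgeR FDR = 0.00811). The call of Fasn was lost without DSS replicate 2 (FDR = 0.0106), and that of Acly without control replicate 1, 2 or 3 or DSS replicate 2 (FDR up to 0.0393), and also without the filter and with the replicate block (FDR up to 0.0346). Against model, Fasn had -3.60 (edgeR FDR = 0.0329) and Acly -2.28 (edgeR FDR = 0.0925), and the model libraries of Fasn spread from 629 to 2356 CPM.

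**Figure D5:**
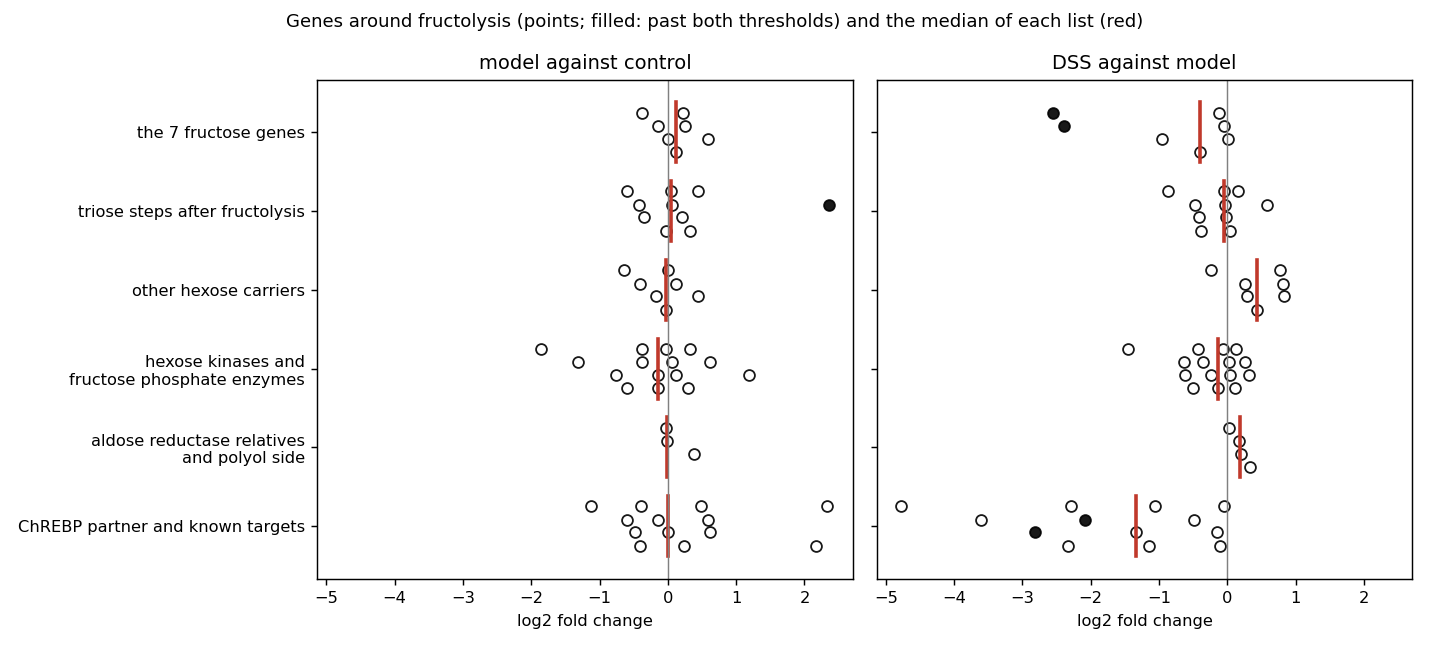
Log2 fold change of every tested gene in the 7 fructose genes and in 5 lists around fructolysis, in model against control (left) and DSS against model (right). Points are genes, filled where both thresholds were passed, and red bars are medians. In DSS against model the bar lies at -0.40 for the fructose genes, -1.34 for the ChREBP partner and targets and 0.43 for the other hexose carriers.

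The genes with the nearest profile to each member were found by the root-mean-square difference of log2(CPM + 1) over the 9 libraries, each gene centred on its own mean, among 12897 genes. These distances are descriptions without a test, and they are set largely by the difference between groups. For Tkfc the nearest were Pklr (0.283), Il17rb (0.338) and Slc2a5 (0.381), where the spread of Tkfc itself around its mean was 1.16. For Slc2a5 they were Il17rb (0.324), Tkfc (0.381) and Gpi (0.415), with an own spread of 1.02. Near Khk lay Gapdh (0.115) and Eno1 (0.162), both enzymes of glycolysis, with an own spread of 0.453.

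The other 4 members varied less around their own means. Slc2a2 (own spread 0.219) lay nearest to Mttp (0.091), LOC100125364 (0.092) and Cyp39a1 (0.101). Glyctk (0.163) lay nearest to Dlg3 (0.047), Adgra3 (0.092) and Itgb5 (0.096), and Sord (0.199) to Ddx24 (0.067), Ttc4 (0.073) and Ints11 (0.075). Akr1b1 (0.358) lay nearest to Erg (0.125), Ucp2 (0.152) and Ap1s2 (0.153).

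Markers of other cells were followed in the same libraries. The summed levels of 9 of the 10 marker lists overlapped between DSS and model libraries, kidney being the exception, and all 10 overlapped between DSS and control libraries. Between model and control, 7 overlapped and the sums of hepatocyte, kidney and pancreas markers were higher in model. The hepatocyte sums were mostly Alb and nearly touched, at 172786 CPM in the highest control and 173111 CPM in the lowest model library. The pancreas sum was nearly all Cela1, with means of 14.9 and 22.3 CPM in control and model rats. Cpb1 went the other way, at 0.647 CPM in control and 0.142 CPM in model rats, and Cpa1 was near 0 in both. The ranges in control, model and DSS libraries were 218 to 546, 162 to 359 and 221 to 316 CPM for macrophages and leukocytes, and 124 to 208, 80.9 to 241 and 126 to 179 CPM for endothelial cells. Stellate cell markers summed to 85.3 to 93.0, 59.5 to 113 and 89.0 to 108 CPM, and bile duct markers to 14.9 to 21.7, 13.5 to 27.7 and 18.9 to 21.4 CPM. For pancreas the sums were 14.4 to 16.7, 18.9 to 28.1 and 16.6 to 26.9 CPM, for adipocytes 8.30 to 18.2, 13.0 to 17.8 and 13.1 to 22.0 CPM, and for red blood cells 438 to 1186, 391.6 to 604 and 359 to 729 CPM.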

How the data were processed

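HISAT2 2.0.5 was the authors' aligner and HTSeq 0.6.1, set to ignore strand, their counter, and the deposited values are whole-number counts per gene, not normalized. The submitters' processing notes name the build Rnor_6.0. Overlapping genes on opposite strands and near-identical copies (relatives of Akr1b1, copies of Gapdh) can share reads. A second table, of assembled transcripts, was not used, since its unit is not stated. Columns of other samples numbered 0.

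Each comparison was fitted on its 6 libraries with edgeR 4.0.16 (R 4.3.3): filterByExpr at defaults, TMM, robust glmQLFit, glmQLFTest (two-sided). DESeq2 1.42.0 was an alternative, as were RLE or no scaling factors, other filters and thresholds, a fit of all 9 libraries, a replicate block and omission of each library. The scripts were tested on simulated data. The text names the 7 members, every called gene of 5 lists, the 2 genes of each list with the lowest p in each comparison, and the 3 nearest profiles per member. A further gene that this rule names is not reported here. Members and lists were chosen with earlier results of these data known. No rat sequence was used here.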

Additional observations from a re-analysis of the deposited data

How the results depend on the processing

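The log2 fold changes of the members were taken under 15 alternatives in each of 3 comparisons. Of the 15, 2 changed only a threshold, so the direction could not change there. Of all these values 283 kept their direction and side of the threshold, 9 lost a call, 5 gained one and 18 changed sign. A member called in neither fit counted as kept if its sign held. No member was called between model and control under any alternative. In DSS against model the 2 called members became 1 (Tkfc) with library size alone or with the replicate block, 3 with DESeq2, and 0 to 2 on leaving out 1 library. Against control they were 2 or 3. Over all genes, called in model against control, DSS against model and DSS against control, the counts of 10, 17 and 187 became 71, 38 and 489 without the filter, 256, 147 and 769 with DESeq2, 75, 57 and 804 at an FDR of 0.05, and 0, 7 and 104 with the replicate block. The fit of all 9 libraries gave 25 and 113 in the first and last comparison, and library size alone gave 11 in DSS against model. Leaving out 1 library gave 0 to 10, 2 to 12 and 86 to 132. The 0 in model against control arose without control replicate 1, 2 or 3, and 5 genes were called without model replicate 1 and 2 without model replicate 3. At an unadjusted p under 0.05 the omissions gave 1129 to 2054 genes there. Replicate numbers did not pair samples: the correlation of deviations between same-numbered samples was between -0.23 and -0.02. The replicate block also gave an FDR of 0.0253 for Slc2a5 in DSS against model. Library size alone moved the median of all genes by -0.15 in model against control and -0.14 in DSS against control, where it called 57 higher and 181 lower in place of 83 and 104. Signs changed only for differences that passed no threshold. In model against control library size alone gave -0.0021 for Glyctk, and no filter gave 0.0035 for Slc2a2. In DSS against model Akr1b1 had -0.016 with library size alone and -7.35e-04 with 9 libraries, and in DSS against control Glyctk had 0.0018 with RLE factors and 0.0019 with DESeq2. Leaving out 1 library gave, in model against control, -0.056 to 0.052 for Slc2a2, -0.13 to 0.51 for Akr1b1, -0.23 to 0.049 for Dcxr and -0.47 to 0.27 for Me1, in DSS against model -0.25 to 0.39 for Akr1b1, and in DSS against control -0.094 to 0.093 for Glyctk. The cause of these changes was not tested. Akr1b1 rests on 54 to 147 counts and Slc2a5 on 71 to 705, and each group holds 3 libraries.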

Other observations

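Some ChREBP targets outside the naming rule are given as values, chosen after their values were seen. Rgs16, a regulator of G protein signalling, had means of 16.6, 83.1 and 3.00 CPM in control, model and DSS rats, with a log2 fold change of -4.77 in DSS against model (edgeR FDR = 0.254). Thrsp, a protein of lipogenic tissue, had 2005, 1432 and 283 CPM (-2.33; edgeR FDR = 0.0984). Fgf21, a hormone released by the liver, had 6.87, 30.5 and 14.7 CPM. In DSS against model edgeR called 0 of the 3, with 2 (Rgs16 and Thrsp) at an unadjusted p under 0.05, and DESeq2 called Thrsp.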
